A study of Mus musculus with 2 samples.

Results

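The genes described here encode the enzymes that attach ubiquitin and its relatives to proteins and those that take them off again, and the quantity measured on their transcripts was the fraction of N6-methyladenosine (m6A) at single positions. The genes were chosen by name: every gene whose name begins with Ube2, Uch or Otu, or with Usp, Uba or Senp and a digit, and the genes of the SUMO family. A site was a position listed with 20 or more reads in replicate 2, and the value of replicate 1 was set beside it where the same position of the same transcript was listed there. The names matched 90 genes in either library, and 51 of them carried the 232 sites described below, on 67 transcripts. The whole series held 16212 such sites, of which 15880 lay in other named genes, so that 1.44% of the sites in named genes belonged to these enzymes.

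Both libraries were made from poly(A) RNA of wild-type retinal organoids at day 6, grown from the mouse line Rx:GFP, in which green fluorescent protein reports the eye-field gene Rax. All cultures had received AGN at 0.1 µM for those 6 days, and no untreated or mutant organoids were part of the samples used here. RNA molecules were read without copying on nanopores (RNA002 chemistry, 1 flow cell for each library), which keeps the modified bases in the molecule that is read. The 2 libraries form 1 group (n = 2), the labels do not say whether they came from separate cultures, and the spread between them may therefore be technical.

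Ubiquitin is a small protein that is joined to other proteins through a cascade: an activating enzyme (E1) charges it, a conjugating enzyme (E2) carries it, and a ligase (E3) chooses the target. Chains of ubiquitin send proteins to the proteasome or change their partners, and deubiquitinases of the USP, UCH and OTU families cut them off. SUMO and NEDD8 are relatives of ubiquitin with their own E1 and E2 enzymes, and the SENP proteases remove SUMO. m6A is written into mRNA as it is made, mostly by a complex built on METTL3, and reader proteins that bind it alter the splicing, translation and decay of the transcript.

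The deposited tables list positions in 4 sequence motifs of 5 bases. All of them belong to the DRACH family in which m6A is found. They are shown here because the median fractions, quartiles and percentiles below were taken within a motif. Some sites set side by side on a transcript differ in motif, and then the levels usual for them can differ as well. The capital marks the adenosine that m6A modifies, and the bases are written as DNA. In the text the motifs are named by the same letters, all in capitals.
Motif 1: ggAca
Motif 2: agAct
Motif 3: ggAct
Motif 4: ggAcc
Positions are counted in nucleotides (nt) from the start of the named Ensembl transcript, as deposited. Which base of the motif a position marks is not given in the sources used here. Listed positions near a transcript start gave 70 matches of their motif in RefSeq's GRCm38.p6 sequence, and 1 position could give several. In 24 matches the motif began 3 nt before the listed position, and no other distance was seen more than 3 times. This would place the central adenosine 1 nt before the listed position.

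Replicate 1 listed 26441 positions with a median coverage of 10 reads, and replicate 2 listed 50099 with a median of 12 reads. Of these, 383 and 626 lay in the enzyme genes, in 74 and 86 genes. At the 232 sites the median coverage was 38 reads in replicate 2, and it was 15.5 reads in replicate 1 at the 186 sites listed there. Only 70 sites, in 28 genes, had 20 or more reads in both libraries. Of 10 eye-field and retinal progenitor markers, 9 were listed in both libraries. None of 5 pluripotency markers and none of 3 mesendoderm markers was listed, and of 4 neuronal markers only Tubb3 was, with at most 17 reads.

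The fraction modified ran from 0 to 1 over the sites of the enzyme genes, and its level differed by motif. In replicate 2 the median was 0.704 at 89 GGACA sites, 0.308 at 41 AGACT sites, 0.250 at 61 GGACT sites and 0.217 at 41 GGACC sites. The same medians over all other genes were 0.667, 0.263, 0.230 and 0.231. In replicate 1, at positions with 20 or more reads there, the enzyme genes had medians of 0.730 (34 positions), 0.396 (18), 0.235 (19) and 0.148 (27), beside 0.674, 0.267, 0.250 and 0.222 in other genes. The enzyme genes minus other genes came to 0.0466 ± 0.0136 for GGACA, 0.0870 ± 0.0600 for AGACT, 0.0028 ± 0.0247 for GGACT and -0.0438 ± 0.0429 for GGACC (mean ± SD over the libraries, n = 2). Each library entered with its own positions, so this SD holds the change of sites as well as that of library. The differences moved by more than this SD with the choice of sites. In replicate 2 the GGACA difference was 0.0370, and it became 0.148 with 50 or more reads and 0.126 with 20 or more in both libraries. The AGACT difference of 0.0445 became 0.261 with 20 or more reads in both and -0.0554 with 1 transcript per gene. An exact paired permutation test over 2 libraries cannot go below p = 0.5, so none of these differences was tested. The sign of the GGACA difference was positive or 0 under all alternatives tried, while the differences of the other 3 motifs each took both signs.

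An upper limit in the deposited values applies to 1 motif. No AGACT position reached 0.95 in either library, among 5243 positions in replicate 1 and 10010 in replicate 2, and the highest value was 0.944 in both. A fraction of 1 was listed at 22.7% and 20.5% of GGACA positions, and at between 4.60% and 5.65% of GGACT and GGACC positions. All 11 sites of the enzyme genes with a fraction of 1 in replicate 2 were accordingly outside AGACT, 10 on GGACA and 1 on GGACT. They made up 4.74% of the 232 sites beside 3.2% in other genes, and 8 sites (3.45% beside 3.22%) had a fraction of 0.

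**Figure D1:**
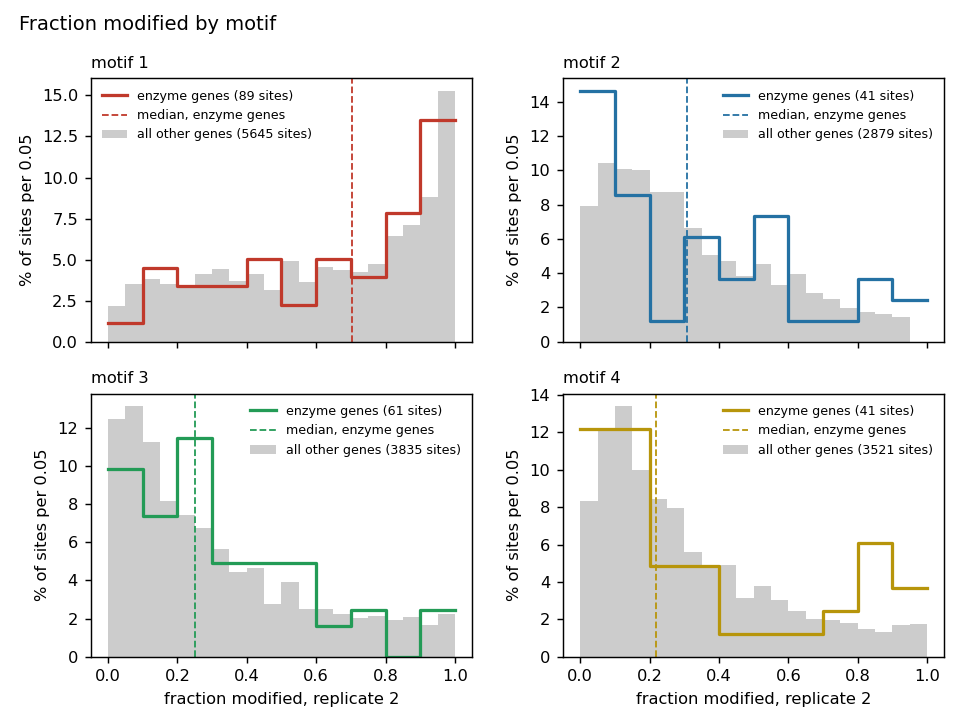
Distribution of the fraction modified in replicate 2 (x axis, 0 to 1) for each motif, as percent of sites per 0.05 of fraction (y axis). Motifs are numbered 1 for GGACA, 2 for AGACT, 3 for GGACT and 4 for GGACC; the coloured line is the enzyme genes, counted in steps of 0.1, the dashed line their median, and the grey bars all other genes. The enzyme medians of 0.704, 0.308, 0.250 and 0.217 follow the grey distributions, the grey bars of motif 2 stop below 0.95, and 12 of 41 enzyme sites of motif 4 lie above 0.5.

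To set sites of different motifs side by side, each was given its percentile among the sites of other genes with the same motif in the same library, for which 50 is the middle. The median percentile of the enzyme sites was 53.3 in replicate 2 and 46.1 in replicate 1, on either side of the middle. These medians rest on different positions, 232 sites in replicate 2 and 98 positions in replicate 1. At the 70 sites with 20 or more reads in both libraries the median of replicate 2 was 48.1, among other-gene sites covered in the same way. In replicate 2, 67 of 232 sites (28.9%, 95% Wilson interval 23.4% to 35.0%) lay above the upper quartile of their motif, where other genes had 24.9% by construction, and 58 (25%) lay below the lower quartile, beside 24.9%. In replicate 1 the counts were 23 of 98 (23.5%, beside 24.8%) above and 25 (25.5%, beside 24.9%) below. Wilson intervals cover counting error only, and sites of 1 transcript can share reads. As a whole the enzyme genes were thus spread over the same range as other genes. Within a gene the sites lay far apart: over the 22 enzyme genes with 4 or more sites the median distance from the lowest to the highest was 69.4 percentile points, beside 73.0 in other genes.

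**Figure D2:**
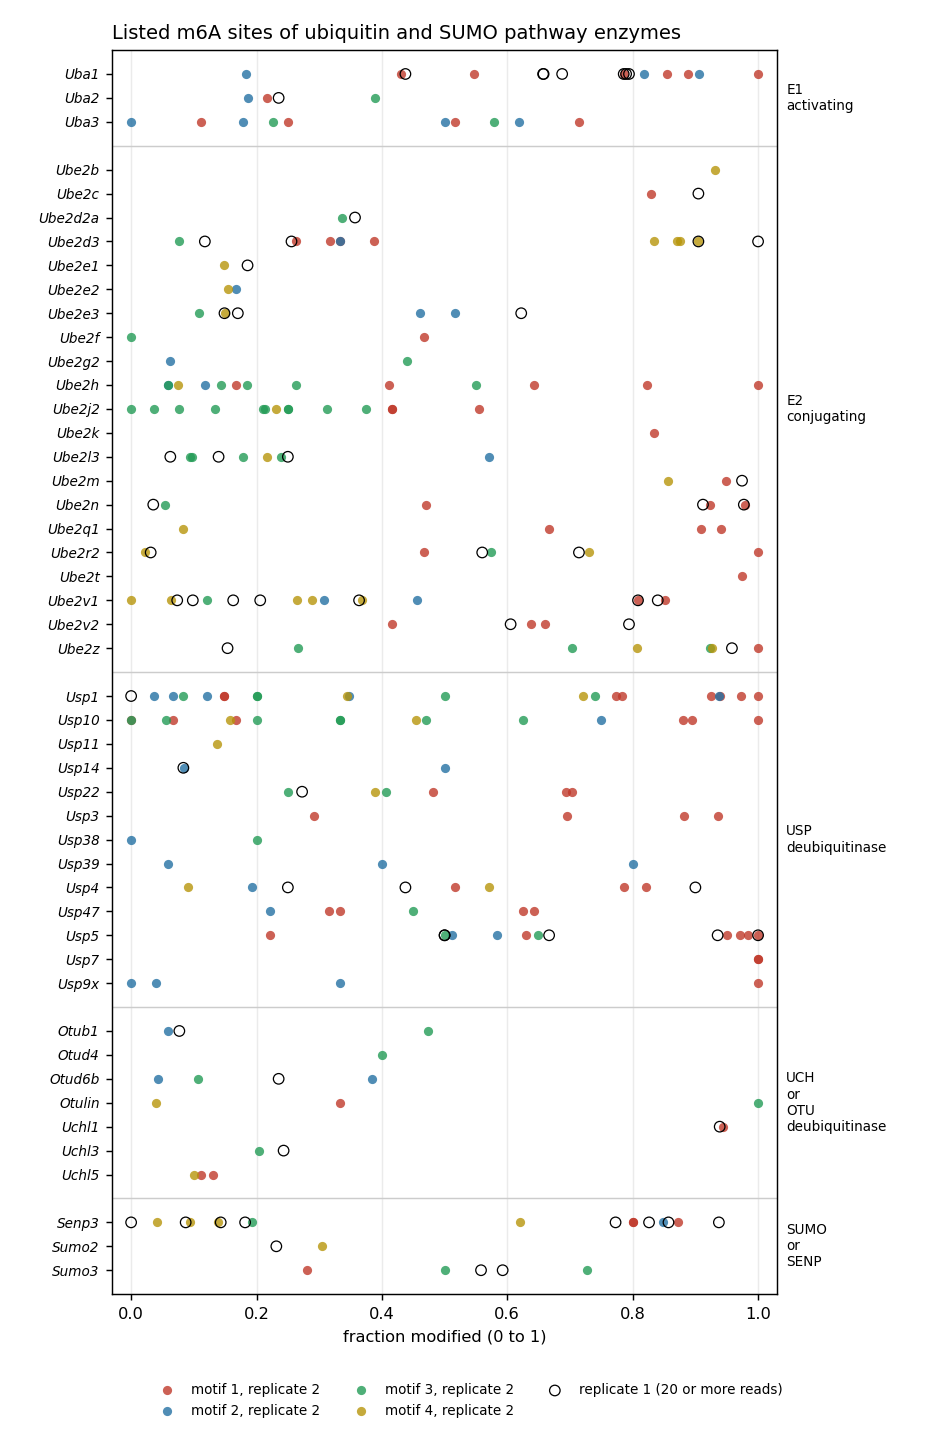
Fraction modified (x axis, 0 to 1) at 224 sites, with 1 row for each of 47 genes, grouped by enzyme class. Filled points are replicate 2, coloured by motif (1 GGACA, 2 AGACT, 3 GGACT, 4 GGACC), and open circles are replicate 1 where it had 20 or more reads. Most genes with several sites span much of the axis, such as Usp1 from 0.0357 to 1.

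Among the E1 enzymes 4 of 5 listed genes had sites, 24 in all. Uba1, the main activating enzyme of ubiquitin (chrX:20524565-20549418, coordinates as deposited), carried 9 sites with 26 to 128 reads in replicate 2, and 3 of them were above the upper quartile of their motif and 0 below the lower. As 4 positions were counted on each of 2 transcripts, the 3 include the same AGACT on both, and on the better covered transcript 1 of 5 sites was above the upper quartile. Its AGACT at position 2343 had 0.794 over 43 reads in replicate 1 and 0.905 over 114 in replicate 2 (0.850 ± 0.0786, mean ± SD, n = 2), which placed it at the 98.9th percentile of AGACT sites. The same motif at position 2235, 108 nt upstream, had 0.183 over 112 reads in replicate 2 and was not listed in replicate 1. Equal motifs on the same transcript of Uba1 thus had very different fractions. A site near the 3' side, GGACA at position 3086, went from 0.657 over 48 reads in replicate 1 to 0.430 over 128 in replicate 2, 1 of 5 enzyme sites at which well covered values differed by more than 0.2.

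The E1 subunits for other modifiers were lower or mixed. Uba2, which charges SUMO together with Sae1, held the lowest well covered E1 site, GGACA at position 875 with 0.235 over 26 reads and 0.217 over 69 in replicates 1 and 2 (0.226 ± 0.0127). Its other sites, at 0.389 and 0.186, were not listed in replicate 1. Uba3, which charges NEDD8, had 10 sites at 34 to 39 reads in replicate 2 and at most 12 in replicate 1, from 0 to 0.714, with 3 in the upper and 3 in the lower quartile. Uba6, an E1 that also serves ubiquitin, was listed with at most 16 reads and had no site.

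The E2 enzymes were the largest class, with sites in 22 of 32 listed genes and 94 sites. Their median percentile was 50.2 in replicate 2, with 25 sites in the upper and 20 in the lower quartile. The E2 genes with the most sites, counted over all transcripts, Ube2j2, Ube2h, Ube2v1 and Ube2d3, are described first (on 1 transcript they had 5, 13, 7 and 3, beside 6 each in Ube2l3 and Ube2z), followed by the partners of ubiquitin chain building, the E2 enzymes of NEDD8 and those of the cell cycle.

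Ube2d3 encodes an E2 that serves many ligases (chr3:135143910-135173959), and its 10 sites fell on 4 transcripts. A GGACC near the transcript start was high on all of them: 0.871 over 191 reads at position 382 of the best covered transcript, 0.905 over 54 reads at position 301, 0.875 over 21 reads at 201 and 0.833 over 21 reads at 589. Replicate 1 gave 0.905 over 58 reads, 1 over 24, 1 over 7 and 0.750 over 6 for the same positions. These values lay between the 94.9th and 96.8th percentile of GGACC sites in replicate 2. The GGACA that lies 681 nt further on in each transcript was low for its motif, with 0.318 over 198 reads and 0.256 over 65 on the best covered transcript and 0.263 to 0.388 on the others. At position 982 this GGACA differed between the libraries, 0.118 over 26 reads against 0.388 over 70. Each transcript of Ube2d3 therefore carried the motif that is usually low at a high level and the motif that is usually high at a low level.

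Ube2v1, a variant E2 without an active cysteine that works beside Ube2n (chr2:167449558-167474015), had 7 sites with 70 or more reads in both libraries on 1 transcript. The GGACA at position 280 had 0.809 over 70 reads and 0.851 over 153, and that at position 561 had 0.840 over 76 and 0.809 over 159. Only 17 nt from the former, the GGACC at position 297 had 0.163 over 71 reads and 0.265 over 153. The gap between these neighbours was 0.646 in replicate 1 and 0.586 in replicate 2. The largest difference between the libraries at the 70 well covered sites was 0.317. The neighbours differ in motif, however, and the replicate 2 medians of other genes were 0.667 for GGACA and 0.231 for GGACC. Within their own motifs the neighbours were at percentiles 69.0 and 55.7 in replicate 2. Further along, AGACT at 1642 had 0.364 and 0.456, GGACC at 1681 had 0.206 and 0.288, and GGACC at 1777 had 0.0735 and 0.0643. None of the 10 sites of Ube2v1 was in the upper quartile of its motif and 2 were in the lower.

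Ube2h, an E2 that works with the CTLH ligase complex (chr6:30211288-30304538), had 13 sites on 1 transcript, all with 20 to 31 reads in replicate 2 and 6 to 12 in replicate 1. They spanned 0.0588 to 1. At position 1937 GGACA had 1 in both libraries, over 12 and 29 reads, and 14 nt downstream GGACC had 0.111 and 0.0741. The GGACA at position 975, in contrast, had 0 over 7 reads and 0.167 over 23. The GGACA at 2193 had 0 over 11 reads in replicate 1 and 0.643 over 29 in replicate 2, the largest difference between libraries at any listed enzyme site, and at this coverage such a value carries little weight. Ube2j2, an E2 anchored in the membrane of the endoplasmic reticulum (chr4:156028288-156044061), had 14 sites on 3 transcripts with 20 to 33 reads in replicate 2. Its fractions were low to middling, 0 to 0.556, with none in the upper quartile and 3 in the lower, and no Ube2j2 site reached 20 reads in replicate 1.

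Ube2n, which builds the ubiquitin chains used in signalling and DNA repair (chr10:95351007-95381519), was among the best covered of the genes. Its GGACA sites at positions 601 and 1011 were almost fully modified, with 0.912 over 115 reads and 0.923 over 243 (0.918 ± 0.0078) at the former and 0.977 over 124 and 0.979 over 251 (0.978 ± 0.0009) at the latter. The GGACT at position 215 had 0.0353 over 103 reads and 0.0538 over 225. Values of the same site differed by less than 0.02 between the libraries at all 3 positions, and differed by more than 0.8 between the GGACT and either GGACA. Within their own motifs the sites at 215, 601 and 1011 were at percentiles 14.1, 79.8 and 90.8 in replicate 2. A further GGACA, at 1301, had 0.471 with the coverage down to 30 reads and was not listed in replicate 1. Its partner Ube2v2 had GGACA at 0.605 and 0.638 at position 616 and at 0.794 and 0.660 at position 189 of the same transcript.

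The E2 of NEDD8, Ube2m (chr7:12769047-12772202), had GGACA at position 794 with 0.974 over 89 reads and 0.948 over 155 (0.961 ± 0.0183). Its GGACC at position 973 was also high, 0.856 over 160 reads in replicate 2, and was not listed in replicate 1 although the transcript had up to 89 reads there. Ube2f, the other NEDD8 E2, had GGACA at 0.467 and GGACT at 0 over 31 reads each in replicate 2, and 0 and 0.167 over 8 reads in replicate 1. Of these only Ube2m was covered well enough for its level to be compared between libraries.

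Ube2r2, a partner of the SCF ligases (chr4:41135743-41193380), spanned the scale from 0.0225 to 1 in replicate 2. GGACA at position 218 had 1 over 87 reads and GGACC at 159 had 0.731 over 77, both in replicate 2 alone. GGACT at 292 had 0.714 over 33 reads and 0.574 over 102. The GGACC at position 1206 had 0.0312 over 51 reads and 0.0225 over 135 (0.0269 ± 0.0062), the lowest of all E2 sites with 50 or more reads in replicate 2 and 20 or more in replicate 1. In replicate 2 the fraction thus went from fully modified near the start of the transcript to almost unmodified 988 nt later, with the motifs differing as well.

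Ube2z, an E2 charged by Uba6 (chr11:95938258-95956214), had 5 of its 6 sites in the upper quartile of their motif in replicate 2, and its median percentile of 95.1 was the highest of the 22 enzyme genes with 4 or more sites. The GGACA at position 2569 had 0.958 over 26 reads and 1 over 62 (0.979 ± 0.0295), while GGACT at 2489, 80 nt upstream, had 0.154 over 25 and 0.267 over 62. GGACT at 707 and 1128 had 0.846 and 0.692 in replicate 1, over 16 and 19 reads, and 0.923 and 0.704 in replicate 2, over 40 and 46. Its GGACC sites at 372 and 1017, with 0.806 and 0.926 in replicate 2, were not listed in replicate 1. Conversely, replicate 1 alone listed GGACA at 2151 with 0.938 over 25 reads and GGACT at 2182 and 2638 with 0 and 0.0435 over 25 and 26, so Ube2z also held low sites. Among other genes with 4 or more sites, 8.22% had a median percentile over 75, and among the enzymes 3 of 22 did, namely Ube2z, Usp5 and Ube2r2.

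Among further E2 enzymes of the cell cycle and of DNA repair, Ube2c, Ube2t and Ube2b had 1 site each. Ube2c, a partner of the anaphase-promoting complex, had GGACA at position 852 with 0.905 over 129 reads and 0.829 over 231 (0.867 ± 0.0534). Ube2t, which acts in the Fanconi anaemia pathway, had GGACA with 0.974 over 40 reads and Ube2b, a partner of the ligase Rad18, had GGACC with 0.932 over 127 reads, each in replicate 2 alone. Ube2s, which extends ubiquitin chains with the anaphase-promoting complex, had no site, but in replicate 1 alone it was listed with GGACC at 0.103 over 174 reads and GGACA at 0.395 over 186. Within their motifs the sites of Ube2c, Ube2t and Ube2b were at percentiles 66.2, 89.9 and 97.5 in replicate 2, so that of Ube2c was not in the upper quartile. The fractions of Ube2s were lower than these, and 1 of its positions is a GGACC. Only the value of Ube2c rests on both libraries.

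Other E2 genes held low and high sites. In Ube2l3, a partner of HECT and RBR ligases, 3 sites with 56 or more reads in both libraries had 0.140, 0.0625 and 0.250 in replicate 1 and 0.217, 0.0968 and 0.239 in replicate 2. Its AGACT at 1142 had 0.429 over 11 reads and 0.571 over 38, and its GGACT at 1244 had 0.455 over 15 and 0.179 over 43, so the order of these sites differed between the libraries. Ube2e1 had 0.186 over 90 reads and 0.148 over 194 at a GGACC. In Ube2e3 a GGACC had 0.149 over 66 and 0.150 over 171 reads and an AGACT at position 1146 had 0.622 over 73 and 0.517 over 173. In Ube2e3 the AGACT was thus the higher of these sites in both libraries. Ube2d2a had 1 site, 0.357 over 100 reads and 0.337 over 178. The remaining E2 genes, Ube2e2, Ube2g2, Ube2k and Ube2q1, had 9 sites from 0.0625 to 0.941 with 20 to 49 reads in replicate 2.

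Of 41 GGACC sites in the enzyme genes 12, in 8 genes, were above 0.5 in replicate 2, which is 29.3% beside 19.9% of GGACC sites in other genes. They comprise the 4 sites of Ube2d3, both of Ube2z, and 1 each in Ube2b, Ube2m, Ube2r2, Senp3, Usp1 and Usp4. The count is less firm than its size: 5 of the 12 were not listed in replicate 1, 4 are the Ube2d3 transcripts described above, and only 3 had 20 or more reads in both libraries. The median over all GGACC sites was not raised.

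The ubiquitin-specific proteases (USP) had sites in 13 of 32 listed genes, 82 in all, with a median percentile of 61.3 in replicate 2 and 45.1 at the 16 positions with 20 or more reads in replicate 1. In replicate 2, 29 sites (35.4%) were in the upper and 21 (25.6%) in the lower quartile of their motif, beside 24.9% each in other genes. Of the 29, Usp1, Usp5 and Usp10 held 8, 8 and 6, with positions counted on 2 transcripts, and with every gene counted once the median percentile of the class was 53.5. A large part of this class rests on replicate 2, since 11 of the 82 sites had 20 or more reads in both libraries.

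Usp5, which takes apart unanchored ubiquitin chains (chr6:124791982-124806447), had 8 of its 10 sites in the upper quartile and 1 in the lower. The 8 are 4 positions counted on each of 2 transcripts. On its better covered transcript GGACA at position 2585 had 1 over 37 reads and 0.984 over 65 (0.992 ± 0.0116), and GGACA at 2750 had 0.935 over 39 and 0.951 over 66 (0.943 ± 0.0108). Between them lay GGACT at 2621, with 0.667 over 37 and 0.649 over 64, and AGACT at 2725, with 0.5 over 39 and 0.511 over 66. These 4 neighbours differed by less than 0.02 between the libraries and kept the same order. Near the other end of the transcript GGACA at 910 had 0.5 and 0.630, and that at 601 had 0.222 over 38 reads in replicate 2 alone. In Usp5, GGACA was thus high in a window of 165 nt and low to middling well upstream of it.

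Usp1, which removes ubiquitin from DNA repair proteins (chr4:98812047-98823780), had 20 sites on 2 transcripts with 21 to 43 reads in replicate 2, the most of the genes over all transcripts. As 9 positions were counted on both, 1 transcript held 10, beside 13 in Ube2h and 11 in Usp10. Replicate 1 had at most 20 reads at them, so single values are imprecise. The pattern along the transcript was nonetheless alike: GGACA at position 2492 had 1 over 19 reads and 0.939 over 41, and GGACA 64 nt downstream had 0.143 over 19 and 0.148 over 41. On the other transcript the same pair had 1 and 0 over 13 and 15 reads in replicate 1 and 1 and 0.148 over 37 and 39 reads in replicate 2. Of the 20 sites, 8 were in the upper and 6 in the lower quartile, which leaves 6 in between.

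Usp10, a protease bound to stress granule proteins (chr8:120637099-120684299), had 16 sites on 2 transcripts, 24 to 46 reads in replicate 2 and 8 to 18 in replicate 1. A like contrast was seen at a pair of GGACA sites 77 nt apart. At position 1912 the fraction was 0.250 over 8 reads and 0 over 33, and at 1989 it was 1 over 8 and 0.880 over 36. The corresponding pair of the other transcript had 0.100 and 0.0667 at the upstream position and 1 and 0.895 at the downstream one. Both libraries and both transcripts gave the same order, low before high.

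The other USP genes had 1 to 6 sites. Usp22, the protease of the SAGA chromatin complex, had 6 sites between 0.250 and 0.704, none in an outer quartile, and its GGACA at position 2804 differed between libraries, 0.273 over 21 reads against 0.481 over 72. Usp14, a proteasome-bound protease, held the lowest USP site among those with 50 or more reads in replicate 2 and 20 or more in replicate 1, 0.0833 over 29 reads and 0.0851 over 56 (0.0842 ± 0.0013). In Usp4, GGACA at position 3062 had 0.9 over 24 reads and 0.786 over 45, GGACA at 2945 had 0.438 over 23 and 0.516 over 44, and GGACC at 2786 had 0.250 over 22 and 0.0909 over 43. These Usp4 sites kept their order in both libraries, while its GGACC at 142, with 0.222 over 11 reads and 0.571 over 29, was the lowest of the 4 in replicate 1 and not in replicate 2. Usp7, which acts on the ligase Mdm2, had 1 at both of its GGACA sites over 25 and 28 reads in replicate 2, and 0.917 over 15 reads at 1 of them in replicate 1. Usp9x, a very large protease encoded on the X chromosome, had 1 at a GGACA in both libraries (18 and 38 reads) and 0 at an AGACT in both (17 and 25 reads). Usp3, Usp11, Usp38, Usp39 and Usp47 had 16 sites from 0 to 0.935 with 21 to 37 reads in replicate 2.

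The UCH and OTU deubiquitinases had sites in 7 of 9 listed genes, 14 in all, and 7 of these (50%) were in the lower quartile of their motif and 3 (21.4%) in the upper, beside 24.9% each in other genes. Uchl5 held 3 of the 7, and with every gene counted once the median percentile of the class was 43.2, beside 25.6 over its sites. Uchl1, which is abundant in neurons (chr5:66833434-66844577), had 1 site, GGACA at position 416, with 0.939 over 58 reads and 0.944 over 103 (0.942 ± 0.0040). Otub1, which also blocks E2 enzymes such as Ube2n (chr19:7175567-7183681), held the lowest well covered value of the class, AGACT at 564 with 0.0769 over 49 reads and 0.0595 over 121 (0.0682 ± 0.0123). At both the Uchl1 and the Otub1 site the libraries differed by less than 0.02. Uchl3 had GGACT at 0.243 over 43 reads and 0.204 over 107. Uchl5, bound to the proteasome, had all 3 of its sites in the lower quartile, including GGACA at 0.111 and 0.130 over 32 reads each, although replicate 1 had 0.400 and 0 there over 10 reads each. The other OTU genes, Otud4, Otud6b and Otulin, had 7 sites from 0.04 to 1 with 21 to 42 reads in replicate 2. With 14 sites, 4 of them covered by 20 or more reads in both libraries, the class is small. At its 7 positions with 20 or more reads in replicate 1 the median percentile was 48.3. The 25.6 of replicate 2 came from its 14 sites, which are not the same set of positions.

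SUMO modifiers are small proteins related to ubiquitin, and their transcripts were read deeply. Sumo2 (chr11:115413928-115427102) had GGACC at position 109 with 0.232 over 292 reads and 0.304 over 475 (0.268 ± 0.0515). Sumo3 (chr10:77441931-77454165) had GGACT at position 1394 with 0.558 over 92 reads and 0.5 over 184 (0.529 ± 0.0411). This GGACT was at the 77.6th percentile of its motif in replicate 2. A second Sumo3 site, GGACA at 414, had 0.593 over 70 reads and 0.281 over 155 (0.437 ± 0.220), the only enzyme site with 50 or more reads in both libraries that differed by more than 0.2. At the Sumo2 site replicate 2 was the higher library, and at both Sumo3 sites given here it was the lower.

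Senp3, a nucleolar SUMO protease (chr11:69563941-69572910), was the member of its class with the most sites, 9 on 1 transcript with 53 to 73 reads in replicate 2 and, at the 8 listed there, 24 to 36 in replicate 1. Its sites fell into a high and a low set, and apart from the GGACC at 218 the sets shared no motif. AGACT at position 206 had 0.826 and 0.848, GGACA at 1524 had 0.857 and 0.800, and GGACA at 1842 had 0.773 and 0.800. GGACC at 247 had 0.143 and 0.139, GGACC at 356 had 0 and 0.0417, and GGACC at 1511 had 0.0870 and 0.0938. GGACT at 853 had 0.182 and 0.192. At these 7 sites the libraries differed by at most 0.0571, and no site lay between 0.2 and 0.77 in either. The exception was GGACC at 218, with 0.938 over 24 reads and 0.621 over 53. The GGACA at 1372 had 0.873 over 71 reads in replicate 2 and was not listed in replicate 1. The AGACT at 206 was at the 96.9th percentile of its motif and the GGACC at 356 at the 6.35th. The other SENP genes, Senp1, Senp2, Senp5, Senp6 and Senp7, were listed with at most 17 reads and had no site.

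**Figure D3:**
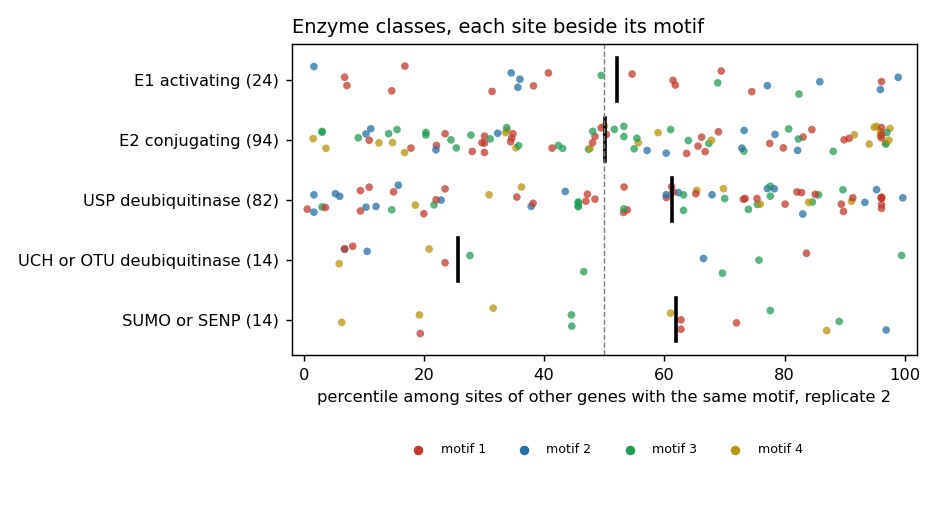
Percentile of the sites of 5 enzyme classes among sites of other genes with the same motif in replicate 2 (x axis, 0 to 100, dashed line at 50), by class with the number of sites in brackets. Points are coloured by motif (1 GGACA, 2 AGACT, 3 GGACT, 4 GGACC) and spread vertically at random within a class; the black bar is the class median. The medians run from 25.6 for UCH and OTU to 61.9 for SUMO and SENP, and each class covers most of the axis.

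The values of both libraries were then compared at each site, since their difference is the only measure of error in the data. At the 70 sites with 20 or more reads in both, differences had a root mean square of 0.101, beside 0.0999 in other genes, and 5 sites (7.14%, beside 5.91%) differed by more than 0.2. Across these sites Pearson's r was 0.953 and Spearman's rho 0.938, given as a description, since sites share transcripts and can share reads. The difference was 0.194 at 33 sites with 5 to 9 reads in replicate 1 and 0.196 at 83 sites with 10 to 19, and was smaller at higher coverage, 0.116 at 39 sites with 20 to 49 reads and 0.0767 at 31 sites with 50 or more. The last value was 0.0657 in other genes. Of the 70 sites 39 were higher in replicate 2 and 31 lower, beside 2326 and 2685 of 5108 in other genes. Of the 5 sites beyond 0.2, Uba1, Senp3 and Sumo3 were lower in replicate 2 and Usp22 and Ube2d3 higher.

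**Figure D4:**
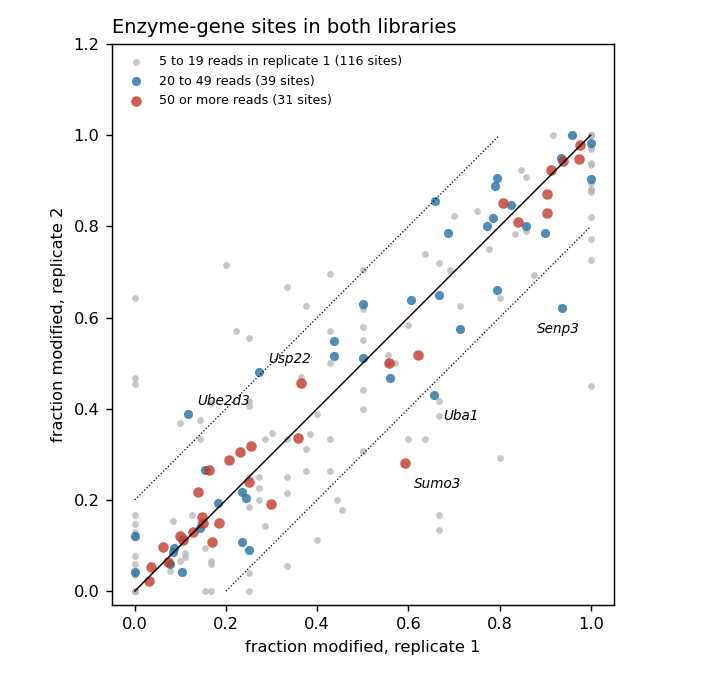
Fraction modified in replicate 1 (x axis) against replicate 2 (y axis) at the 186 sites of the enzyme genes listed in both. Colours give the coverage in replicate 1 (grey 5 to 19 reads, blue 20 to 49, red 50 or more); the solid line marks equality and the dotted lines a difference of 0.2. Red points lie close to the line except Sumo3, and the 4 other named points are the blue ones outside the dotted lines.

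Sites at either end of the scale were found in both libraries. A fraction of 0.9 or more in both, at 20 or more reads in both, was seen at 8 of 70 sites (11.4%, beside 9.38% in other genes). These are the sites of Ube2m, Uchl1, Ube2n (2), Ube2z and Usp5 (2), all GGACA, and the GGACC of Ube2d3 at position 301. A fraction of 0.05 or less in both was seen at 2 sites (2.86%, beside 2.25%), the GGACC sites of Senp3 at 356 and Ube2r2 at 1206. Neither share was far from that of other genes.

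Pairs of sites on the same transcript were compared in replicate 2, at any distance unless a distance is given. Sites of the same motif on the same transcript differed by a median of 0.256 over 162 pairs on 34 transcripts, beside 0.250 in other genes, and 21.0% of the pairs differed by more than 0.5, beside 21.9%. Within 20 nt there were 10 pairs of any motif, with a median difference of 0.494 beside 0.329 over 718 pairs in other genes. The widest was that of Ube2h, described above, at 0.926, followed by GGACC at 1511 and GGACA at 1524 of Senp3, at 0.706 in replicate 2 and 0.770 in replicate 1. Sites of the same motif on 1 transcript thus differed about as much in these genes as in others, and the 10 close pairs are too few to set against the rest.

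Several genes were listed on more than 1 transcript, 11 of 51 (21.6%) beside 10.8% of other genes. Where 2 transcripts of a gene shared at least 2 sites at a constant distance, the sites were taken as the same positions of the gene. There were 47 such pairs of sites, in 14 pairs of transcripts of 7 genes, and their fractions differed by a median of 0.0697 in replicate 2. The difference exceeded 0.2 at 3 of them, all in Usp1, with the widest at a GGACC, 0.345 over 42 reads on 1 transcript and 0.720 over 39 on the other. Replicate 1 had 0.385 and 0.667 there over 19 and 15 reads, in the same order. Of the 47 pairs, 12 were in Ube2d3 and 11 in Ube2j2. Transcripts that shared only 1 site were left out by this rule. Such pairs differed by 0.227 in Sumo3 and 0.221 in Ube2v2, and by less than 0.2 elsewhere. How reads were assigned to transcripts that share most of their sequence is not given in the sources used here, so these pairs are not independent measurements.

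**Figure D5:**
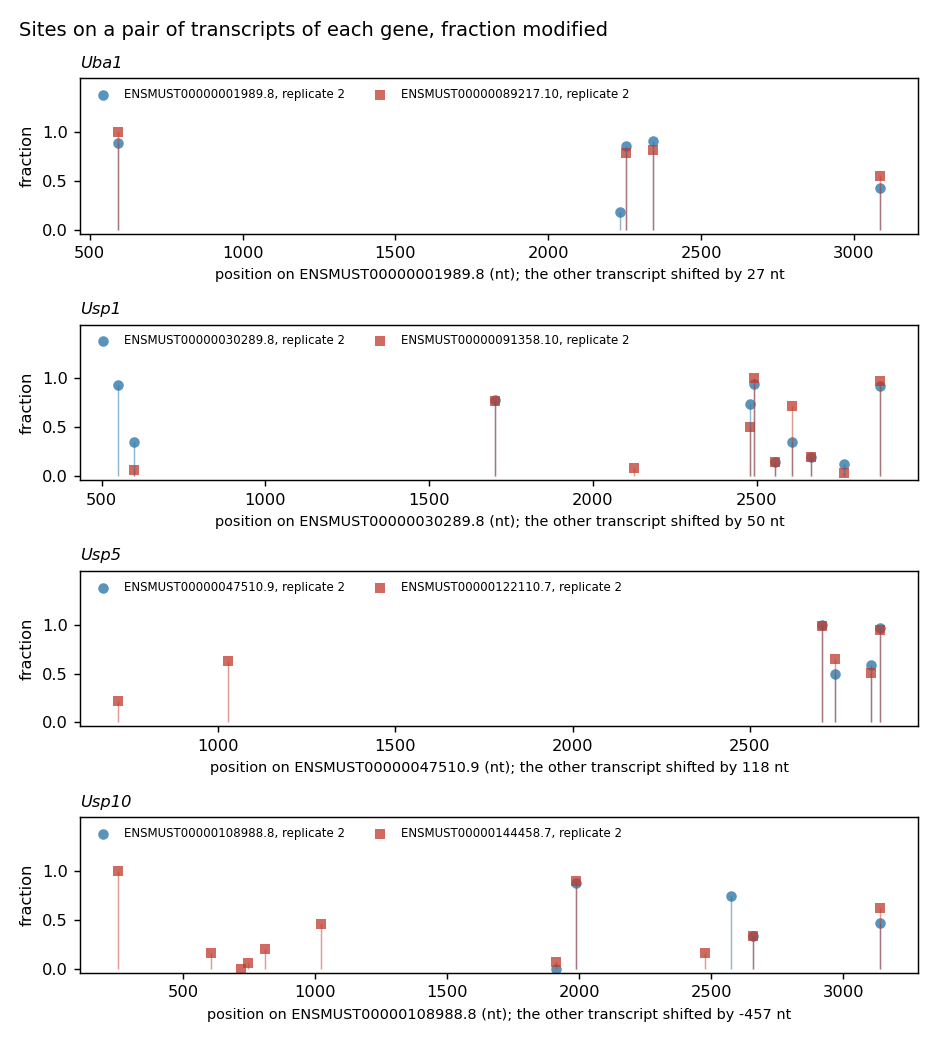
Fraction modified in replicate 2 (y axis, 0 to 1) along a pair of transcripts of Uba1, Usp1, Usp5 and Usp10 (x axis, position in nt on the transcript named first, with the other shifted by the constant distance between their sites). Circles and squares are the 2 transcripts and each stem is a site with 20 or more reads. Shared sites lie close together, with the exception of 3 in Usp1, where the difference exceeded 0.2.

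Of the 232 sites, 186 (80.2%, beside 74.6% in other genes) were listed in replicate 1 and 46 were not. On 20 of those 46 the transcript had 20 or more reads at some other listed position of replicate 1 (43.5%, beside 31.4% in other genes). Among the 78 sites with 50 or more reads in replicate 2, 12 (15.4%, beside 15.1%) were not listed in replicate 1. They include AGACT at 1154 of Ube2e3, with 0.462 over 174 reads, and GGACC at 973 of Ube2m. Conversely, 28 of 98 positions with 20 or more reads in replicate 1 (28.6%, beside 18.9% in other genes) were not in the table of replicate 2 used here. They include the 2 in Ube2s given above, while replicate 2 listed the gene once with 16 reads. Ube2n had 0.452 over 114 reads at position 570. The tables do not tell whether a position without an entry was unmodified, not examined or short of reads.

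The sites lay between positions 109 and 8344 of their transcripts with a median of 1250, beside 1334 in other genes. By position, 14.7% were within the leading 500 nt and 28.4% beyond 2000 nt, beside 14.9% and 29.0%. Placement in coding or untranslated sequence was not analysed here. The sources name the genome build mm10, while only 5 of the 90 genes had a listed start within 1000 bases of that in RefSeq's GRCm38.p6 table, so the gene coordinates above are printed as deposited and their build is uncertain.

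The 39 listed genes without a site included 4 seen in replicate 1 alone, namely Ube2a, Ube2d1, Ube2d-ps and Ube2w. Among the other 35 were 19 USP genes, such as Usp15 and Usp25, the E2 genes Ube2g1, Ube2j1, Ube2l6, Ube2o, Ube2q2 and Ube2s, and Ube2cbp and Usp6nl, whose products have other activities. Their highest coverage in replicate 2 was between 5 and 19 reads. This was not always so in replicate 1, where Ube2s had up to 186. In bulk RNA, fewer cells that express a gene and less of its RNA in each cannot be told apart, and whether low coverage here reflects either was not tested.

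Other genes of the same pathways gave a like picture. Of a list of 80 genes of modifiers, HECT and U-box ligases, further deubiquitinases, SUMO, NEDD8 and UFM1 enzymes and p97 cofactors, 43 had 216 sites with a median percentile of 49.7 in replicate 2, 54 of them in the upper and 48 in the lower quartile (beside 24.9% each in other genes). In deubiquitinases whose names the rule does not match 9 of 17 sites were in the upper quartile, in Brcc3, Cops5, Josd1, Psmd14 and Bap1, a relative of the UCH enzymes that held 7 of the 17 sites and 3 of the 9. Psmd14, the deubiquitinase of the proteasome lid, had GGACT at position 352 with 0.674 over 68 reads and 0.697 over 118. In other ubiquitin-like modifiers 14 of 28 sites were in the lower quartile, and Atg12 alone held 13 of the 28, on 1 transcript. The 14 include all 3 of Fau, which are an AGACT on each of 3 transcripts. On the best covered of these it had 0.0582 over 586 reads and 0.0526 over 987. Nedd8 had 1 site, at 0.493 over 340 reads. The list was drawn up for its pathways, and its subgroups rest on few genes each.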

How the data were processed

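Per the labels, 2 direct RNA libraries (SQK-RNA002) of 1 group were sequenced. The authors deposited, for each library, a table of positions with a fraction modified (a fraction from 0 to 1) and a coverage, the count of reads; no position has fewer than 5 reads. The callers, aligner and denominator of the fraction are not given in the sources used here. Only 39.5% and 36.1% of fractions are whole multiples of 1/coverage (within 0.0001 × coverage), so no read counts or per-site intervals were derived, and precision rests on the difference between libraries. The submitters' processing notes name mm10. The tables of the minus strand hold none of these genes and were not used.

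Tables were joined on transcript version and position (Python 3.11.15, pandas 2.3.3, numpy 2.4.6; figures with matplotlib 3.10.9). Percentiles were taken within each motif among other named genes, with ties at their middle; this step was tested on simulated data. The text names the 8 most site-rich genes, the highest and lowest well covered site of each class, sites that differ by more than 0.2 or lie at 0.9 or more or 0.05 or less in both libraries, and the SUMO genes; other members were named to account for all sites, and some neighbouring sites were chosen after their values were seen. The members, marker and pathway lists were chosen with earlier results of these data known. Alternatives were other coverage minimums, 1 transcript or 1 value per gene, and leaving out a library. The values of some genes, and a count without 1 of them, are not reported here.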

Additional observations from a re-analysis of the deposited data

How the results depend on the processing

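With no minimum beyond the deposited 5 reads the enzyme genes had 626 sites in 86 genes, the GGACA difference to other genes was 0, and 22.8% and 22.2% of sites were in the upper and lower quartile. With 50 reads in replicate 2 there were 78 sites in 26 genes, differences of 0.148 (GGACA), 0.222 (AGACT) and -0.0571 (GGACC), a median percentile of 59.3, 17.9% of sites in the lower quartile and a root mean square difference between libraries of 0.0996. With 20 reads in both libraries there were 70 sites in 28 genes, differences of 0.126 (GGACA), 0.261 (AGACT), -0.0516 (GGACT) and -0.0809 (GGACC), a median percentile of 48.1, 24.3% in the lower quartile and a root mean square of 0.101. It was 0.0767 with 50 reads in both. With 1 transcript per gene the AGACT difference was -0.0554, the GGACC difference -0.0729 and the lower quartile share 25.5%. With every gene counted once the differences were 0.148 (GGACA), -0.0204 (AGACT) and 0.0928 (GGACT).

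Leaving out 1 library (the value with replicate 2 alone equals that reported) gave 98 to 232 sites, 32 to 51 genes, differences of 0.037 to 0.0562 (GGACA), 0.0445 to 0.129 (AGACT), -0.0147 to 0.0203 (GGACT) and -0.0741 to -0.0134 (GGACC), median percentiles of 46.1 to 53.3, upper quartile shares of 23.5% to 28.9% and lower ones of 25% to 25.5%. The cause of these shifts was not tested. No paired analysis was possible between groups because the samples form 1 group. Site counts of the 8 genes with the most sites, with alternatives chosen after seeing the data, moved in 19 of 32 settings; with 50 reads in replicate 2, Usp1, Usp10, Ube2j2, Ube2h and Uba3 had 0 sites.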
